A study of Equus caballus with 8 samples.

Results

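The 10 genes described here encode transcription factors of families with immediate-early members. These are the FOS family (FOS, FOSB, FOSL1 and FOSL2), the JUN family (JUN, JUNB and JUND) and the zinc-finger factors EGR1, EGR2 and EGR3. They were chosen by gene symbol, and all 10 had a row among the 15266 named genes of the table. All 10 also passed the filter on low values, which left 14907 genes to test. The RNA came from BM-MSCs, plastic-adherent mesenchymal stem cells grown from the sternal marrow of 4 horses, named by the letters D, J, L and W. For each letter there was an untreated library and a library of cells cultured with 1 ng/ml human recombinant TGF-β2, so that 4 untreated and 4 TGF-β2-treated libraries were compared in pairs. Per the labels, all cells were grown in low glucose DMEM with serum, and the treated portion of each marrow received TGF-β2 from isolation to passage 3 or 4. The methods of the study add basic fibroblast growth factor to the medium of both groups and give the treatment as 3 passages. The labels do not say which library was harvested at which passage, and neither these nor the methods give the time between the last change of medium and RNA extraction.

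FOS and JUN proteins pair through leucine zippers to form AP-1, which binds DNA at promoters and enhancers of genes for proliferation, matrix turnover and stress. Transcription of many of these genes and of EGR genes starts within minutes of growth factor, serum or mechanical stimulation, and the transcripts decay fast. For FOS and EGR1 it starts mostly through the serum response factor (SRF), its ETS-domain partners and CREB. JUND differs in that most cells express it without stimulation, and FOSL1 is also counted below among AP-1 targets. TGF-β receptors signal through SMAD proteins, which can bind DNA beside AP-1, and through the MAP kinases. In tendon, EGR1 and EGR2 are known as regulators of the collagen-producing cell. The values here describe cells after several passages with the cytokine and not the first hour after its addition.

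Of the 10 genes, 5 fell after TGF-β2 treatment and none rose. FOS, FOSB, JUN, JUNB and EGR1 were lower in each of the 4 horses, and their mean levels were 2.46-fold (JUN) to 5.37-fold (EGR1) lower. FOSL1, FOSL2, JUND and EGR2 were not called, with log2 fold changes between -0.15 and 0.20. EGR3 had few reads and the most negative log2 fold change, -2.59, but its adjusted p of 0.0503 missed the threshold. A gene was called where limma, fitted with the horse as a block to log2(normalized count + 1), gave a Benjamini-Hochberg adjusted p below 0.05 over all tested genes and the change exceeded 1 on the log2 scale in either direction. By this rule 7.31% of all tested genes were called lower and 6.83% higher. The median log2 fold change of the 10 genes was -1.31, against 0.01 over all tested genes. None of the 10 genes was called higher by limma, DESeq2 or edgeR, and none was higher at an unadjusted limma p below 0.05.

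**Figure D1:**
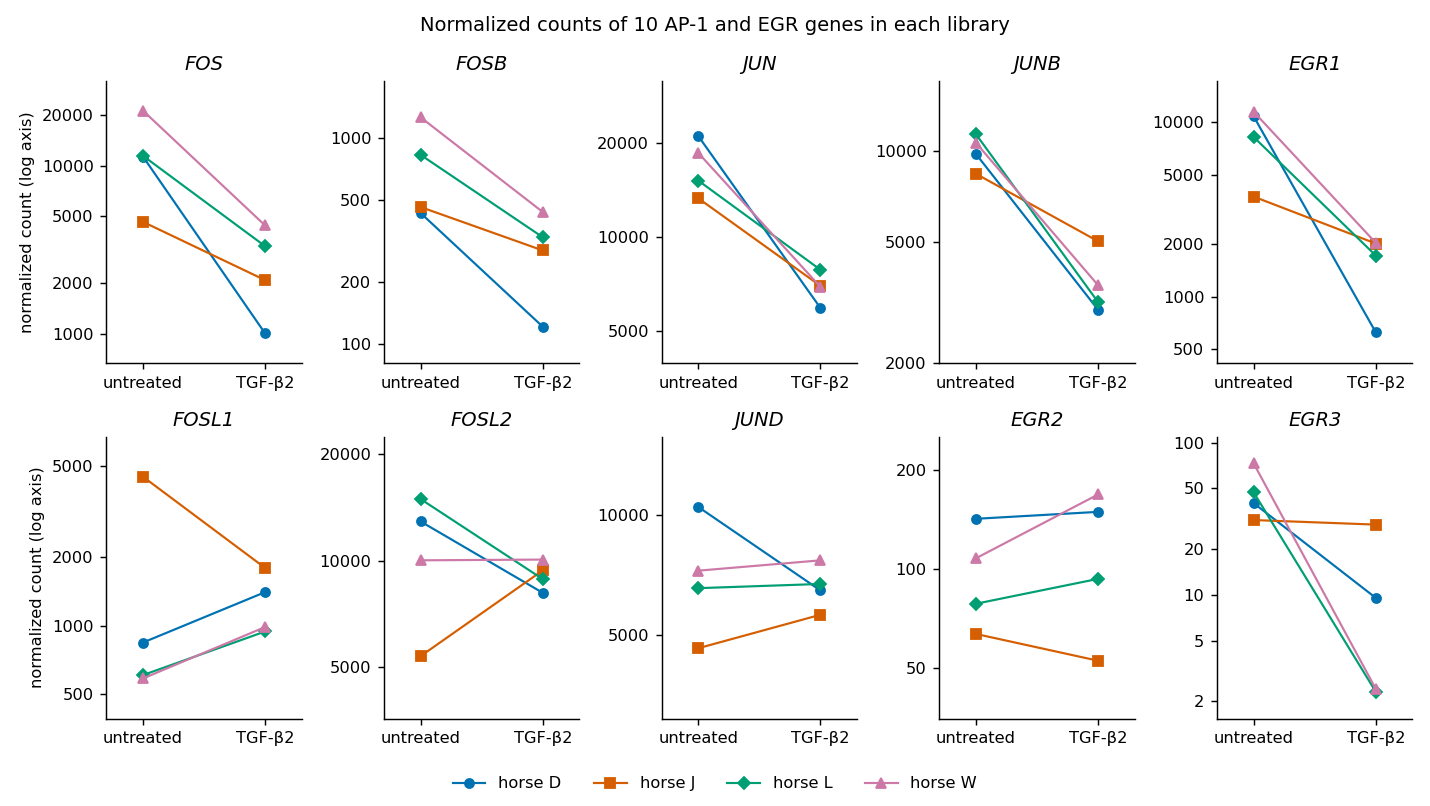
Normalized count (log axis) of each of the 10 genes in the untreated and the TGF-β2-treated library of each horse, with a line joining the 2 libraries of a horse. All lines of FOS, FOSB, JUN, JUNB, EGR1 and EGR3 point down, that of EGR3 in horse J only from 31.0 to 28.9, while FOSL1 in the untreated library of horse J lies at 4501 against at most 843 in the other untreated libraries.

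Libraries held 39184554 to 57228675 reads in named genes. Genes with a known response to TGF-β changed in the treated cells: SKIL, TGFBI, ACTA2 and TAGLN were called higher, by 1.33 (TAGLN) to 2.27 (ACTA2) on the log2 scale, and SMAD7 was not called, with a log2 fold change of 0.02 that turned to -0.29 when libraries were scaled to their totals (limma adjusted p 0.931 in the former). All 8 stromal markers examined (ITGB1, CD44, THY1, NT5E, ENG, LUM, DCN and PDGFRB) were expressed, and THY1 and LUM were called lower. The summed level of the 8 markers was 263037 normalized counts in the untreated library of horse J, 460635 to 713440 in the other untreated libraries and 271439 to 355031 in the treated ones. THY1 had a log2 fold change of -2.21 and LUM of -1.80, and LUM was not called without horse D, L or W (limma adjusted p 0.102, 0.0779 and 0.106). The untreated library of horse J stood apart from the others. Its root mean square deviation from the mean of the untreated libraries, over all tested genes on the log2 scale, was 0.75, against 0.48 to 0.55 for the other untreated libraries. Its summed level of 12 proliferation genes was 26597 normalized counts, against 7407 to 14763 in the other untreated libraries, and its summed level of 10 heat shock genes was 156021, against 85142 to 100938. The values of the 10 genes are therefore given below for every horse.

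Of 8 leukocyte markers, 6 had a row and 5 were tested, and LAPTM5 alone was called lower (log2 fold change -2.22, limma adjusted p 0.0259). LAPTM5 was not called without the block (adjusted p 0.306), or without horse D or W (0.0507 and 0.0763). Summed over the list, leukocyte markers had 526 to 2720.0 normalized counts in untreated and 398 to 763 in treated libraries, with the highest value in the untreated library of horse J. PTPRC, the gene of CD45, had 1.74 normalized counts in the untreated library of horse D, 109.7 in that of J, 41.5 in that of L and 26.4 in that of W. After treatment PTPRC had 1.19 normalized counts in horse D, 3.21 in J, 23.0 in L and 7.21 in W, lower in every horse, although both values of horse D were below the floor of 3 reads. LAPTM5 had 14.8 normalized counts in the untreated library of horse D, 96.95 in that of J, 270.4 in that of L and 93.3 in that of W, and 0, 18.2, 119.6 and 34.8 after treatment. Both markers were thus lower after treatment in all 4 horses, as were FOS, FOSB, JUN, JUNB, EGR1 and EGR3 and 25.6% of all tested genes. PTPRC was not called, nor were ITGAL, ITGAM and CD68 (limma adjusted p 0.112, 0.346, 0.488 and 0.0871). CD14 and CD34, which define other blood cell types, had no row. Of 6 endothelial markers CDH5 and KDR had a row, at 7.10 to 26.3 normalized counts in sum in untreated and 30.0 to 55.7 in treated libraries, and KDR was called higher (log2 fold change 2.27, limma adjusted p 0.0109, or 0.0542 without horse D). The part of leukocytes and endothelial cells in the results below was not tested. In bulk RNA, fewer cells expressing a gene and less of its RNA in each cell cannot be told apart.

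FOS encodes c-Fos, the founding AP-1 subunit with a strong transactivation domain. In untreated BM-MSCs, FOS had 11309 normalized counts in horse D, 4625 in J, 11430 in L and 21208 in W. After TGF-β2 treatment the same horses had 1003, 2081, 3312 and 4401. Every treated library lay below every untreated one, although the highest treated library, that of horse W, came close to the lowest untreated one, that of J. Mean FOS was 12143 ± 6829 without and 2699 ± 1475 normalized counts with TGF-β2 (SD, n = 4). The log2 fold change was -2.18 (SE 0.37, limma adjusted p 0.0114, or 0.0254 without the block). The decrease ran from 2.22-fold in horse J to 11.3-fold in horse D. Without horse W, FOS was no longer called (log2 fold change -2.14, limma adjusted p 0.0670). It was called in the other 15 of 16 alternative fits, with adjusted p from 9.48e-08 (DESeq2) upwards.

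FOSB encodes a close relative of c-Fos. Untreated cells had 432, 463, 828 and 1259 normalized counts of FOSB in horses D, J, L and W, and treated cells had 121, 285, 329.9 and 437. The groups overlapped, since the untreated library of horse D lay just below the treated one of horse W, but within each horse the treated library was the lower one. FOSB fell by 1.34 on the log2 scale (standard error 0.20), with a limma adjusted p of 0.00855 with the horse as a block and 0.0718 without it. It was thus called in the paired fit alone of these 2 fits. Without horse W the adjusted p of FOSB in the paired limma fit was 0.0579, and over all alternatives it ran from 1.63e-07 to 0.0718.

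FOSL1 and FOSL2 encode Fra-1 and Fra-2, Fos-related proteins that lack the transactivation domain of c-Fos and persist longer after stimulation. FOSL1 had 843 normalized counts in the untreated cells of horse D, 4501 in those of J, 607 in those of L and 586 in those of W, against 1403, 1791, 943 and 986 after treatment. It was higher after treatment in horses D, L and W, by 0.63 to 0.75 on the log2 scale, and lower in horse J by a change of -1.33. The fit over all horses gave 0.20 (95% confidence interval -0.75 to 1.14), with a limma adjusted p of 0.723, and was -0.11 with libraries scaled to their totals. With horse J left out, FOSL1 had a log2 fold change of 0.71 and a limma adjusted p of 0.00615, still short of the fold change that a call required.

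FOSL2 ran from 5379 normalized counts in horse J to 14907 in horse L in untreated cells, with 12888.5 in D and 10017 in W. Treated cells held 8110.1 in D, 9385 in J, 8865 in L and 10065 in W, a narrower range. FOSL2 was lower after treatment in horses D and L, higher in J and nearly level in W, where the log2 change was 0.01. Its log2 fold change was -0.15 (95% confidence interval -0.83 to 0.53, limma adjusted p 0.701). The SD of FOSL2 over the horses was 4132 normalized counts without and 826 with TGF-β2.

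JUN encodes c-Jun, the main partner of Fos proteins and a target of the JUN N-terminal kinases. JUN had 21049 normalized counts in the untreated library of horse D, 13312 in J, 15167 in L and 18593 in W. The treated libraries had 5933, 6981, 7861 and 6927, all below the lowest untreated value. The log2 fold change was -1.28 (standard error 0.17, limma adjusted p 0.00634), a 2.46-fold decrease of the mean. JUN was called with any single horse left out, with limma adjusted p between 0.00515 and 0.0459.

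JUNB encodes an AP-1 subunit with weaker transactivation than c-Jun, known as an early TGF-β target in many cells. Its levels were the most even of the 10 genes between untreated libraries in relative terms, with 9792 normalized counts in horse D, 8419.8 in J, 11379.8 in L and 10660.3 in W. Treated cells held 2987, 5034, 3167 and 3601, and no treated library reached an untreated one. JUNB fell by 1.47 on the log2 scale (standard error 0.19, limma adjusted p 0.00605), and it was called with any single horse left out (limma adjusted p 0.000724 to 0.0448). JUN and JUNB were the genes of the 10 that were called in each of the 16 alternative fits.

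JUND, the JUN family member that most cells express without stimulation, had 10445 normalized counts in the untreated library of horse D, 4629 in J, 6543 in L and 7237 in W. The treated libraries had 6457, 5614, 6703 and 7681, within the range of the untreated ones. The log2 change of JUND was -0.69 in horse D and between 0.03 and 0.28 in the other horses. Over all horses it was -0.07 (95% confidence interval -0.50 to 0.35, limma adjusted p 0.769).

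EGR1, an activator with a GC-rich binding site, had the most negative fold change of the 5 called genes. Untreated cells held 10832.5 normalized counts of EGR1 in horse D, 3749 in J, 8241 in L and 11505.5 in W, and treated cells held 624, 2018, 1721 and 2035. The groups did not overlap. EGR1 was 17.4-fold lower in horse D, 5.65-fold in W, 4.79-fold in L and 1.86-fold in J. On the log2 scale EGR1 fell by 2.44 (SE 0.49), with a limma adjusted p of 0.0179, or 0.00918 without the block. EGR1 ranked 318 among the 1090 genes called lower. The call was lost without horse L (log2 fold change -2.50, limma adjusted p 0.0518) and without horse W (-2.42 and 0.0866). Over 16 alternative fits the adjusted p of EGR1 ran from 1.5e-06 to 0.0866.

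EGR2, known from myelination and also from tendon, was much closer between the groups. Its normalized counts were 142 in untreated and 149 in treated cells of horse D, 63.3 and 52.5 in J, 78.2 and 93.1 in L, and 108 and 168 in W. EGR2 was higher after treatment in 3 horses and lower in J. The log2 fold change was 0.17 (95% confidence interval -0.35 to 0.69, limma adjusted p 0.559), and with libraries scaled to their totals it was -0.14.

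EGR3 had 30.97 to 73.1 normalized counts in untreated cells, from 46 to 72 reads per library. In treated cells it had 9.53 normalized counts in horse D, 28.9 in J, 2.30 in L and 2.40 in W, which came from 8, 27, 2 and 2 reads. No treated library reached an untreated one, but in horse J the values, 31.0 and 28.9, were nearly level. The log2 fold change of EGR3 was -2.59 (95% confidence interval -4.48 to -0.71, limma adjusted p 0.0503), and the test without the block called it, with an adjusted p of 0.0335. DESeq2 with a term for the horse also called EGR3 lower (adjusted p 0.00541), and edgeR's quasi-likelihood test with that term did not (adjusted p 0.0811). With horse J left out, limma gave EGR3 a log2 fold change of -3.42, with an adjusted p of 0.00970. The treated values of horses L and W lay below the floor of 3 reads, so the size of the change depended on the pseudocount. With all horses it was -1.99 at a pseudocount of 5 and -2.72 at 0.5. Over 15 alternatives the adjusted p of EGR3 lay between 0.00541 and 0.175, the latter without horse W.

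**Figure D2:**
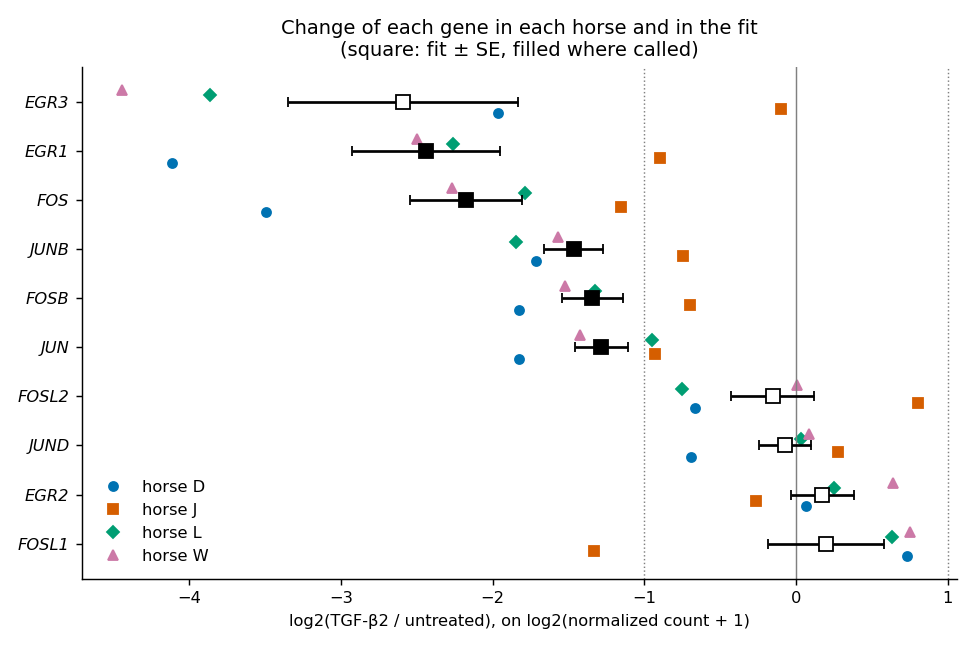
Log2 change of each gene from untreated to TGF-β2-treated cells: coloured symbols give each horse, squares the fit over 4 horses with its standard error, filled where the gene was called, and dotted lines the fold change threshold. Horse J lies to the right of the other horses for EGR3, EGR1, FOS, JUNB, FOSB, JUN, FOSL2 and JUND, and to the left of them for EGR2 and FOSL1.

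Altogether 6 of the 10 genes were lower in all 4 horses, where this held for 25.6% of all tested genes. In 5 of them, FOS, JUN, JUNB, EGR1 and EGR3, the treated libraries lay below the untreated ones without overlap, against 13.9% of all tested genes. Without the block limma also called 5 of the 10 genes lower, with 5.87% of all genes called lower and 5.59% higher, and 4 of the 5 (FOS, JUN, JUNB and EGR1) were called in both fits. The horses differed in the size of the change. Horse J had the smallest decrease for all 6 genes that were lower in each horse, while the largest was in horse D for 4 of them (FOS, FOSB, JUN and EGR1), in L for JUNB and in W for EGR3. The median log2 change of these 6 genes was -0.82 in horse J and between -1.92 and -1.82 in the other horses. Untreated cells of horse J had the lowest level of 8 of the 10 genes, all but FOSB and FOSL1. With 1 library per horse and treatment, a difference between horses could not be tested. Since horse J had the smallest decreases, leaving it out necessarily enlarged those of the 5 called genes. For EGR1 the log2 fold change was -2.96 without horse J and -2.44 with it.

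The difference between members of a family was followed by the ratio of their normalized counts in the same library, which does not depend on the scaling of the library. The ratios were chosen after the values were seen, each with a gene called lower over a gene not called. Their decreases therefore restate the results above and are not separate evidence. No value was divided by transcript length, so a ratio does not give the relation of the transcripts, but its change is not affected by length. The FOS/FOSL2 ratio was 0.877, 0.860, 0.767 and 2.12 in untreated cells of horses D, J, L and W and 0.124, 0.222, 0.374 and 0.437 in treated cells. It fell in each horse, by 2.02 ± 0.75 on the log2 scale (SD, n = 4, exact sign-flip permutation test over horses, two-sided p = 0.125). With 4 horses this exact test cannot give a p below 0.125, and the adjusted p over the 5 ratios compared was 0.156 where all horses moved in the same direction.

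The JUN/JUND ratio was 2.02 to 2.88 in untreated and 0.902 to 1.24 in treated libraries, and its log2 change was the most even between horses, -1.21 ± 0.22 (SD, n = 4, exact permutation p = 0.125). The JUNB/JUND ratio changed by -1.39 ± 0.44 on the log2 scale and the EGR1/EGR2 ratio by -2.62 ± 1.5, both lower in all 4 horses (SD, n = 4, exact permutation p = 0.125 for each). EGR1/EGR2 stood at 59.2 to 107 in untreated libraries and at 4.19, 38.5, 18.5 and 12.1 in the treated libraries of horses D, J, L and W. The FOS/FOSL1 ratio was lower after treatment in 3 horses but not in J, where it was 1.03 without and 1.16 with TGF-β2 (exact permutation p = 0.25, adjusted over the 5 ratios 0.25). In untreated cells of the other horses FOS/FOSL1 lay between 13.4 and 36.2.

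**Figure D3:**
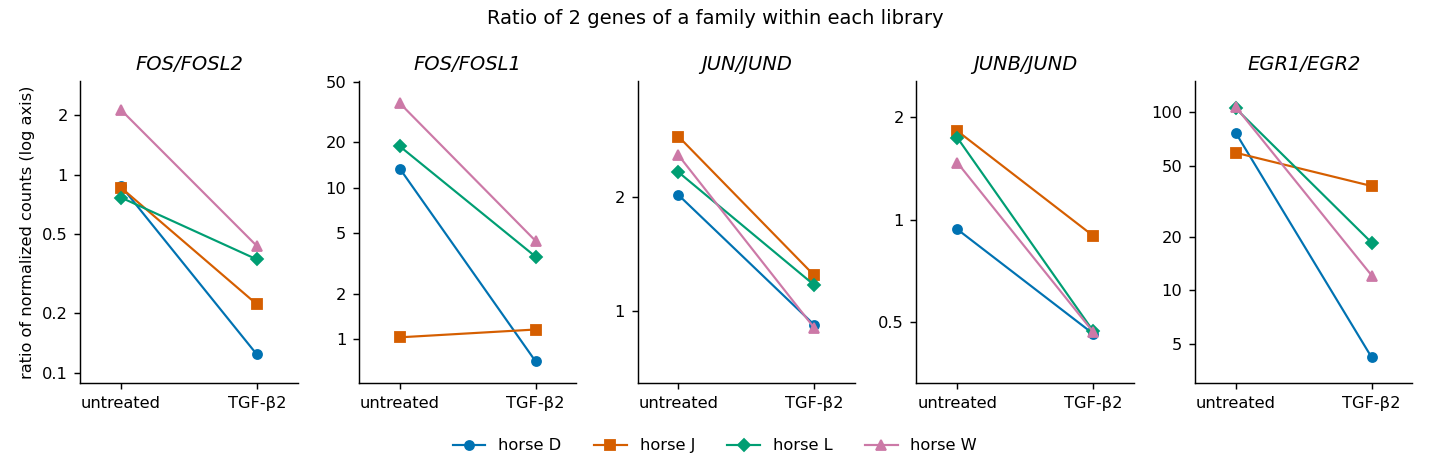
Ratio of the normalized counts of 2 genes of a family (log axis) in the untreated and the TGF-β2-treated library of each horse. The ratio falls in all 4 horses for FOS/FOSL2, JUN/JUND, JUNB/JUND and EGR1/EGR2, and in horse J it stays near 1 for FOS/FOSL1.

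Other immediate-early genes did not all move with the 10. Of 31 symbols on the list, which name CYR61 also as CCN1, 28 were tested. Limma called 5 lower and 2 higher, and the median log2 fold change was -0.23. Over all tested genes 7.31% were called lower and 6.83% higher. DESeq2 called 6 genes of the list lower and 2 higher, and edgeR 5 lower and 2 higher. At an unadjusted limma p below 0.05, 13 were lower and 4 higher. The summed level of the list was 125919 to 147842 normalized counts in untreated and 101448 to 125895 in treated libraries, a lower range. ZFP36 (tristetraprolin) and ZFP36L2, whose proteins bind AU-rich elements and promote the decay of short-lived mRNAs, had the most negative fold changes. ZFP36L2 fell from 10327.5 ± 1979 to 1371 ± 480.5 normalized counts (SD, n = 4), with a log2 fold change of -2.95 (limma adjusted p 0.00135). ZFP36 fell from 3134 ± 509.8 to 579 ± 108 normalized counts, by 2.44 on the log2 scale (limma adjusted p 0.0010). In horse J the log2 change of ZFP36 was -2.59, close to the -2.66 of horse D, whereas that of FOS was -1.15 in J and -3.49 in D. For ZFP36L2 the change was smallest in horse J, -2.34, against -3.54 to -2.89 in the other horses. KLF4, a Krüppel-like factor, fell by 1.38 on the log2 scale (limma adjusted p 0.00403), with -1.65 in horse J and -1.69 in D.

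CSRNP1, which encodes a cysteine- and serine-rich nuclear protein, went against the 5 called genes and rose from 354 ± 60.3 to 1326 ± 136 normalized counts (SD, n = 4, log2 fold change 1.91, limma adjusted p 0.00139). CSRNP1, KLF4, ZFP36 and ZFP36L2 kept their call whichever horse was left out. GADD45B, a stress sensor gene known to respond to TGF-β, was also called higher, with a log2 fold change of 1.35 (limma adjusted p 0.0102, or 0.0505 without horse W). KLF2 and BTG1, named after their values were seen, completed the genes called lower, at -1.19 and -1.10. KLF2 was not called without horse D or W (limma adjusted p 0.0580 and 0.0596), and BTG1 without D, L or W (0.0855, 0.0632 and 0.0930).

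Among other bZIP proteins that can pair within AP-1 (ATF, BATF, JDP2 and MAF), 13 of 16 genes were tested, and the median log2 fold change was -0.06. Limma called 1 of them higher and none lower, although 4 were lower at an unadjusted p below 0.05, and DESeq2 called 2 lower and edgeR 0. The gene called higher was ATF5, with a log2 fold change of 1.70 (limma adjusted p 0.0352), which was not called without the block (0.0976) or without horse D, L or W (0.131, 0.0566 and 0.0747). ATF3, also an immediate-early gene and named after its values were seen, had a log2 fold change of 0.08 in the same test (adjusted p 0.869).

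SRF and its partners on the list, 7 genes with a row, were all tested. None was called in either direction by limma, DESeq2 or edgeR, although 2 were higher at an unadjusted limma p below 0.05. SRF itself had 3698 ± 689 normalized counts without and 6263 ± 429 with TGF-β2 (SD, n = 4). All 4 treated libraries were above all untreated ones, and the log2 fold change of SRF was 0.78 (limma adjusted p 0.00480), below the fold change that a call required. NAB1 and NAB2, co-repressors that bind EGR proteins, were not called by limma, DESeq2 or edgeR, although each had an unadjusted limma p below 0.05. NAB2, itself a known EGR1 target, had 1551 ± 436 normalized counts without and 1068 ± 276 with TGF-β2, a log2 fold change of -0.54 (limma adjusted p 0.0131, or 0.136 without the block). NAB1 had a log2 fold change of 0.25 (limma adjusted p 0.0536), or -0.06 with libraries scaled to their totals.

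Of the kinases above these factors and CREB1, 20 of 21 genes were tested. Limma, DESeq2 and edgeR each called 2 lower and 0 higher, while 5 were higher and 7 lower at an unadjusted limma p below 0.05, and the median log2 fold change was -0.10. The genes that limma called were MAP2K6, an activator of p38 kinases, and MAPK12, a p38 kinase, each with a log2 fold change of -1.19. The limma adjusted p of MAP2K6 was 0.00520 with the block and 0.116 without it. MAPK12 was not called without horse D or W (limma adjusted p 0.0641 and 0.0716) or without J, where its log2 fold change was -0.92. Of 8 dual-specificity phosphatases, which switch MAP kinases off, 7 were tested, and DUSP1 was called lower and DUSP8 higher. DUSP1, itself an immediate-early gene, had 14885 ± 3780 normalized counts without and 6243 ± 2513 with TGF-β2 (SD, n = 4, log2 fold change -1.31, limma adjusted p 0.0175). It was called neither without horse D (log2 fold change -0.997) nor without W (adjusted p 0.0682). DUSP8 had a log2 fold change of 1.33 and a limma adjusted p of 0.0222 with the block, 0.0510 without it, 0.0582 without horse D and 0.105 without W.

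Textbook AP-1 targets moved in both directions. Of 16 genes, 13 were tested, FOSL1 and CD44 among them, with 2 called higher, 3 lower and a median log2 fold change of 0.19. DESeq2 called 4 lower and 2 higher, edgeR 3 lower and 2 higher. At an unadjusted limma p below 0.05, 5 were lower and 2 higher. IL6, named after its values were seen, had the most negative log2 fold change of the list, -2.53, and was not called (limma adjusted p 0.0731). None of the 5 targets that limma called kept its call without horse W, where the calls over all tested genes also fell, from 2108 to 1080. The plasminogen activator gene PLAU had a log2 fold change of -1.19 (limma adjusted p 0.0426) and its receptor gene PLAUR of 1.49 (0.00977). PLAU had a change of -0.01 in horse J and was not called without horse D, L or W (limma adjusted p 0.135, 0.128 and 0.154), nor PLAUR without D or W (0.0550 and 0.0617). MMP9, a gelatinase, and LMNA, a lamin gene, were called lower with log2 fold changes of -2.15 and -1.05. Without horse W, MMP9 had a limma adjusted p of 0.0830 (0.0829 without D) and LMNA a log2 fold change of -0.905. MMP1, an interstitial collagenase, was called higher but rested on few reads, with 5.15 ± 6.13 normalized counts without and 35.8 ± 36.7 with TGF-β2 (SD, n = 4). Its limma adjusted p was 0.0117 with the block, 0.112 without it, 0.0526 without horse D and 0.0545 without W.

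Genes described as EGR targets were mostly higher where EGR1 was lower. Of 12, 11 were tested and 8 were called higher, with a median log2 fold change of 2.40. None was called lower by limma, DESeq2 or edgeR, and 1 was lower at an unadjusted limma p below 0.05. The list was drawn up with earlier results of these data known and holds matrix genes that TGF-β induces in many cells, so its direction is not independent evidence. PDGFB had the highest fold change, 4.65 on the log2 scale (limma adjusted p 0.00290), with at most 9.13 normalized counts without and at least 49.2 with TGF-β2. F3, which encodes tissue factor, rose 17.1-fold, from 909.9 ± 497 to 15562 ± 2226 normalized counts (SD, n = 4, limma adjusted p 0.00203). FN1 and COL1A1 had log2 fold changes of 3.30 and 2.5, and COL1A1 was not called without horse D or W (limma adjusted p 0.0902 and 0.0718). PDGFA, COL1A2 and SCX, a tendon transcription factor gene, all named after their values were seen, were also called higher, COL1A2 with a limma adjusted p of 0.0414 that was 0.0919 without the block.

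Heat shock genes, which respond to the handling of cells, had a median log2 fold change of -0.05. Of 10 tested, 1 was called, HSPB8, at a log2 fold change of 1.19 (limma adjusted p 0.0229), and it was not called without the block (0.343) or without horse D, L or W (0.0952, 0.0825 and 0.0946). HSPA1A, named after its values were seen, went the other way, with a log2 fold change of -0.68, short of a call. Its limma adjusted p was 0.0463, or 0.171 without the block. Limma, DESeq2 and edgeR called none of the 12 proliferation genes, and none had an unadjusted limma p below 0.05. The lowest adjusted p was that of PLK1, 0.135, with a log2 fold change of 0.53. Summed over the list, proliferation genes had 4927 to 25356 normalized counts in treated libraries, a range that overlapped that of the untreated ones. The part of handling and growth in the change of the AP-1 and EGR genes was not tested.

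**Figure D4:**
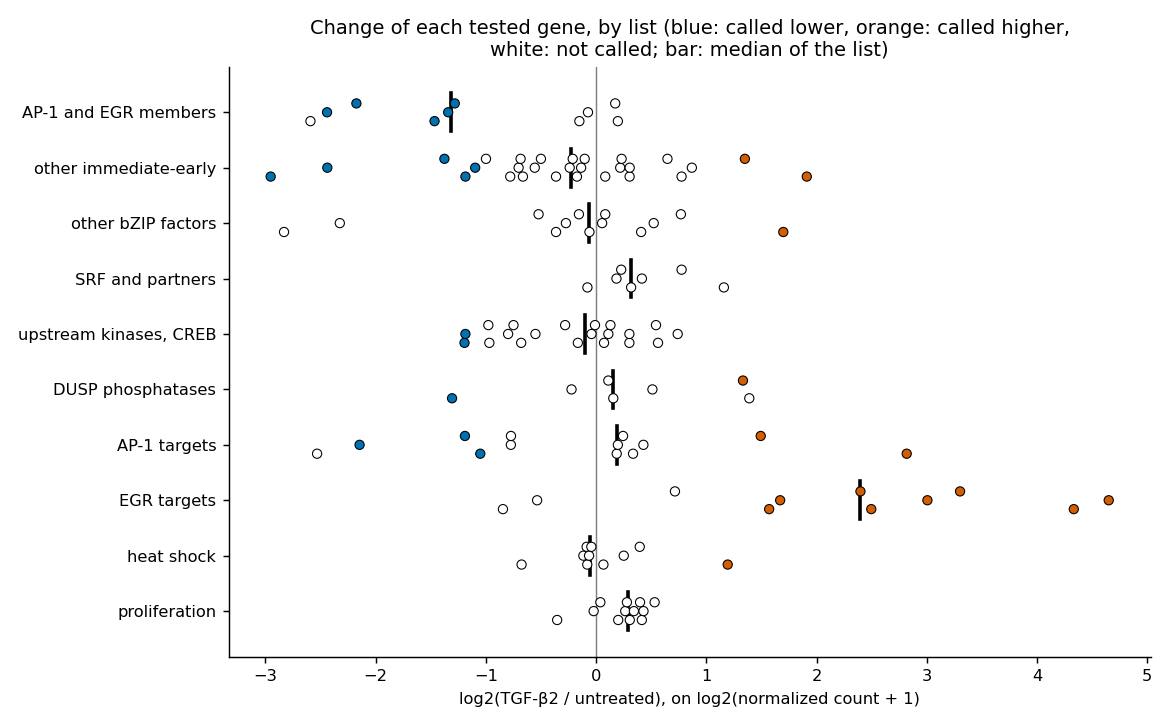
Log2 fold change of every tested gene in each list, in blue where called lower, in orange where called higher and in white where not called, with a bar at the median of the list. The medians are -1.31 for the 10 AP-1 and EGR genes, -0.23 for the other immediate-early genes and 2.40 for the EGR targets.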

How the data were processed

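RNA was sequenced after poly(A) selection from 1 untreated and 1 treated culture of each of 4 horses. The authors trimmed reads with Trimmomatic 0.36, mapped them to EquCab 3.0 with STAR 2.5.2b and counted unique gene hits with featureCounts of Subread 1.5.2. The deposited values were normalized counts, a signal that the authors made by dividing the gene counts of each library by a DESeq2 size factor. Whole reads were recovered from them for 100% of values within 0.001 reads, with 39184554 to 57228675 reads a library. A row without a gene name, 0.0281 to 0.0531% of reads, was left out. A count of 3 reads, taken as the floor, was worth 2.02 to 3.60 normalized counts.

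Genes that reached 10 normalized counts in 4 or more of the 8 libraries were tested with limma 3.58.1 (R 4.3.3; lmFit and trended eBayes) on log2(normalized count + 1), so that fold changes of low genes are understated. The horse was a block, and p-values were adjusted by the Benjamini-Hochberg method over all tested genes. Each horse gave both libraries, as the labels state, and deviations from the group means correlated at 0.39 to 0.61 between the libraries of a horse. The average between horses was -0.20 to -0.14. Centring on the group mean makes it follow largely from the values within a horse, so it is not a separate comparison. The methods of the study name DESeq2's Wald test with these thresholds and no term for the horse. Alternatives were the fit without the block, other pseudocounts, filters and scalings, no intensity trend, no fold change threshold, each horse left out, and DESeq2 1.42.0 and edgeR 4.0.16 on the recovered reads with the horse in the model. Scripts were tested on simulated data.

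The genes, lists and tests were chosen with earlier results of these data known, and the ratios after the values were seen. Named genes were the 10 AP-1 and EGR genes and, from each list, at most 5 called genes with the largest changes in the same direction in all 4 horses, or the gene with the lowest adjusted p where a list of 3 or more genes had no call. The co-repressor list and the treatment check were to be named in full. Results of some genes under this rule are not reported here. Genes named outside the rule are marked as named after their values were seen. Library strandedness is not given in the sources used here. Values were not divided by transcript length, so ratios of genes and sums over a list were compared only between libraries. Genes with many reads weigh most in such a sum, as LUM and THY1 do among the stromal markers.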

Additional observations from a re-analysis of the deposited data

Results flagged for a closer look

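In 100 groups of 4 libraries examined, 6 had a library that lay apart from the other 3 by Dixon's criterion, which chance meets in about 1 of 20 groups. FOSL1 had 4501 normalized counts in the untreated library of horse J and 586 to 843 in the other untreated libraries. BATF2, a bZIP gene named after its values were seen, had 7227 normalized counts in the same library and 63.1 to 573 in the others. ATF5 had 3249.9 normalized counts in the untreated library of horse L and 623 to 996 in the others. HSPB8 had 418 normalized counts in the treated library of horse L and 58.9 to 66.4 in the others. In the treated library of horse J, SKIL had 3701 normalized counts against 3343.5 to 3354.6, and BTG1 had 2357 against 1438 to 1581.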

How the results depend on the processing

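Of the 10 genes, 5 were called lower, and between 2 (without horse W) and 6 (without J) when a horse was left out. The count was 6 with a pseudocount of 5, total scaling or DESeq2, and 5 with no replicate block, where FOSB was lost and EGR3 gained. None was called higher under any alternative. Genes called numbered 2108 in all, 1709 with no replicate block, 4610 with no fold change threshold and 1080 (without W) to 2442 (without J) with a horse left out. Total scaling shifted the median of all genes to -0.30 on the log2 scale, and 27.6% of its calls were higher against 48.3% in the main comparison. Under total scaling the log2 fold change was -0.11 for FOSL1, -0.14 for EGR2, -0.062 for NAB1 and -0.29 for SMAD7. With a horse left out it ran from -0.47 to 0.047 for FOSL2, -0.19 to 0.13 for JUND and -0.14 to 0.15 for SMAD7, whose signs were not stable. Low genes such as EGR3 gave no value with a filter at 50 normalized counts. The causes were not tested.

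The calls in a list, with a horse left out, numbered 1 to 4 for stromal markers, 0 to 1 for leukocyte markers, endothelial markers, SRF and its partners and heat shock genes, 0 to 3 for other bZIP genes and phosphatases, 5 to 10 for other immediate-early genes, 1 to 4 for kinases, 0 to 6 for AP-1 targets and 6 to 8 for EGR targets. With no fold change threshold they were 5 stromal markers, 4 bZIP, 14 immediate-early, 1 co-repressor, 2 SRF partner, 8 kinase and 2 heat shock genes. With no replicate block they were 0 leukocyte markers, 1 kinase, 1 phosphatase and 0 heat shock genes. Total scaling gave 2 leukocyte markers, 2 bZIP, 6 kinase and 0 heat shock genes. DESeq2 gave 1 stromal marker, 2 leukocyte markers and 3 bZIP genes. The fit with no intensity trend gave 0 bZIP genes, and the filter at 50 gave 0 endothelial markers.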

Other observations

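The genes named here were chosen after their values were seen. BATF2, an interferon-responsive AP-1 partner, had 74.0, 7227, 63.1 and 573 normalized counts in untreated cells of horses D, J, L and W and 39.3, 70.7, 59.8 and 43.3 after treatment, and limma did not call it (log2 fold change -2.83, adjusted p 0.104). IER3, an immediate-early gene linked to cell survival, was lower in each horse by a narrow range of log2 changes, -0.80 to -0.63, below the fold change that a call required (limma adjusted p 0.00362).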
